A study of Arabidopsis thaliana with 47 samples.

Results

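Transcript levels after 0.5 h of light were compared between Arabidopsis seedlings grown with lincomycin (Lin_0.5h, 4 arrays) and without it (noLin_0.5h, 4 arrays), which are 8 of the 47 arrays of the study. The arrays were chosen by their labels for treatment and time alone, with no measured value. All seedlings were Col-0, were grown on medium with 2% sucrose, and spent 6 d in dim blue plus red light of 0.5 µmol m-2 s-1 before a shift to 60 µmol m-2 s-1, so that they were 7 days old at harvest. Lincomycin, at 0.5 mM, was in the medium the seeds were plated on. The 0 h arrays, taken before the shift, served as the check of each gene: 4 of each treatment carry the numbers 5 to 8 and 4 carry the numbers 1 to 4. Each sample was a collection of whole seedlings whose RNA was hybridised to an ATH1 array, which reads a gene through a probe set of short oligonucleotides. Nothing in the labels says whether the samples of a group came from separate sowings, so the p-values measure the spread between these arrays. In whole seedlings, fewer cells of a type and less RNA per cell cannot be told apart.

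Lincomycin blocks the ribosomes of plastids and so stops the translation of the genes that the chloroplast genome still carries. Most chloroplast proteins are encoded in the nucleus, and nuclear photosynthesis genes are known to be repressed when plastid development is blocked, which is called retrograde signalling. A shift to brighter light is known to call on photoreceptors and on the chloroplast itself within minutes, and the comparison asks how seedlings with and without functional plastids differ at that early time.

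The treatments at 0.5 h differed in more than lincomycin. The bacterial control transcript Dap, which is spiked into the RNA, read 8.87 ± 0.09 (SD, n = 4) log2 units on the lincomycin arrays and 4.83 ± 0.57 on the untreated ones. At 0 h the numbers 1 to 4 were divided in the same way, with 8.99 ± 0.15 against 4.12 ± 0.49, whereas the numbers 5 to 8 read 8.13 ± 0.13 and 8.42 ± 0.22. The arrays are therefore called a high and a low spike-in set, and the set and the treatment cannot be told apart within the 0.5 h arrays. Median signal was 218.5 to 239.4 on the lincomycin arrays and 195.8 to 201.4 on the untreated arrays, although every array had been scaled to the same trimmed mean. The 3′ to 5′ difference of the GAPDH control probe sets, a sign of RNA integrity, was 0.53 ± 0.13 and 0.44 ± 0.03 log2 units at 0.5 h but 1.07 ± 0.17 and 1.47 ± 0.11 in the 0 h numbers 5 to 8. No arrays of a 0.5 h group were copies of each other, the highest Pearson correlation being 0.9641. Up to 3 values are given for a gene, and a gene given by the first alone is shown without the check. The first is the direct difference at 0.5 h. The second is the difference at 0 h in numbers 5 to 8, where Dap levels were close. Another spiked control, Lys, was less close there, at 4.9 ± 0.4 with and 5.8 ± 0.3 without lincomycin. At 0.5 h Lys read 6.7 ± 0.2 and 4.1 ± 0.7. The sets are thus named by Dap. A lincomycin effect given at 0 h without array numbers is from numbers 5 to 8. The last is the value within spike-in sets, which adds to the second the change between 0 h (numbers 1 to 4) and 0.5 h and so uses no difference between sets, as long as a set adds a constant amount.

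Of 22746 probe sets, 6610 (29.1%) passed an adjusted p of 0.05 in limma at 0.5 h. Of these 4221 (18.6% of all) were higher and 2389 (10.5%) were lower with lincomycin. The groups of arrays did not overlap for 4117 probe sets (18.1%) in the higher direction and for 2408 (10.6%) in the lower. The median of all probe sets stood at 0.22 log2 units, so a small positive difference is close to what a typical probe set showed. After quantile normalization that median was 0.03. In the 0 h numbers 5 to 8, 6474 probe sets (28.5%) were called, 3900 higher (17.1%) and 2574 lower (11.3%), and the median was 0.07.

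The check differed for rises and falls. In the same direction at both times were 3156 probe sets (13.9% of those tested), 1826 higher (8.03%) and 1330 lower (5.85%), which are 47.7% of the 0.5 h calls and 48.7% of the 0 h calls. Shared falls were 55.7% of the 0.5 h falls and 51.7% of the 0 h falls, and shared rises were 43.3% and 46.8%. Against the 0 h numbers 1 to 4 instead, 72.8% of the 0.5 h falls and 66.1% of the rises were called in the same direction. As a description, of 1176 rises of at least 1 log2 unit, 324 (27.6%) were also called higher at 0 h, and of 634 falls of that size 425 (67.0%) were also called lower. At 2 log2 units the figures were 40 of 205 rises (19.5%) and 70 of 92 falls (76.1%). Opposite directions were called for 182 probe sets. Of the higher calls, 17.0% had a group mean at or below the first quartile of its arrays, where signals are dim, against 4.0% of the lower calls. The difference between the effect at 0.5 h and that at 0 h in numbers 5 to 8 was itself called for 2514 probe sets (11.1%), 1311 (5.76%) in the positive and 1203 (5.29%) in the negative direction. The value within spike-in sets was called for 2542 (11.2%), 1361 higher (5.98%) and 1181 lower (5.19%). In the 0 h numbers 1 to 4, 6915 probe sets (30.4%) were called, 4571 higher (20.1%) and 2344 lower (10.3%). The lincomycin effect at 0 h differed between these arrays and the numbers 5 to 8 in 2136 probe sets (9.39%), 1118 (4.92%) positive and 1018 (4.48%) negative.

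**Figure D1:**
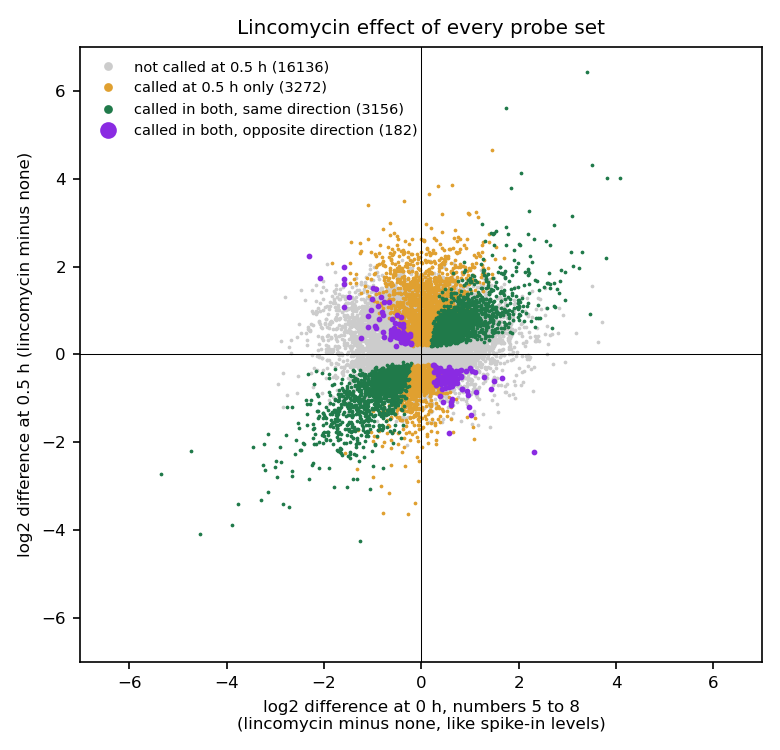
Lincomycin effect of each of 22746 probe sets at 0.5 h (vertical axis, log2 difference) against that at 0 h in numbers 5 to 8 (horizontal axis). Colours give the calls: 3156 probe sets passed in both with the same direction, 182 with opposite directions, and 3272 at 0.5 h but not at 0 h.

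The genes of the photosynthetic apparatus were lower throughout. All 35 measured genes of the photosystems and electron transport were lower with lincomycin at 0.5 h, with a median of -1.42 log2 units and a range from -2.43 to -0.73. At 0 h in numbers 5 to 8, 34 of the 35 were lower (median -1.53), and within spike-in sets 33 were (median -1.46; 5.19% of all probe sets were called lower there). The mean of the list lay between 12.59 and 12.74 on the 4 untreated arrays and between 11.01 and 11.19 on the lincomycin arrays. Photosystem genes mark green tissue, and these list means stood above the dim range on all 8 arrays. PSBS, the photosystem II protein that senses excess light in the thylakoid lumen, read 12.21, 12.27, 12.07 and 12.04 without and 9.61, 9.99, 9.73 and 9.56 with lincomycin, which is a difference of -2.43 ± 0.14 (SE; adjusted p = 3.2e-10 in limma). The lowest untreated array thus stood above the highest lincomycin array. PSBTN, a small photosystem II subunit, differed by -2.35 ± 0.11, the ATP synthase subunit ATPD by -2.31 ± 0.13 and the plastocyanin gene PETE1 by -2.21 ± 0.10.

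Antenna genes encode the proteins that bind chlorophyll and pass light energy to the photosystems. Of 13 measured, 12 were lower and 1 was higher, with a median of -1.37, and 12 were also lower at 0 h in numbers 5 to 8. LHCB2.3, a major antenna protein of photosystem II, read 12.11, 12.13, 11.69 and 11.96 on the untreated arrays and 7.75, 8.05, 7.96 and 7.72 on the lincomycin arrays. At -4.10 ± 0.27 (adjusted p = 1.3e-09 in limma) it was among the 8 largest falls shared with 0 h, where it differed by -4.54 ± 0.27; the untreated arrays all lay at or above 11.69. The LHCB2.3 level differed by -3.72 ± 0.26, -4.75 ± 0.24 and -4.95 ± 0.26 at 1, 4 and 24 h. Values at these times come from a fit of 46 arrays, which leaves out noLin_24h 4, an array that stood apart with a median rank correlation of 0.618 with the other arrays.

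Carbon fixation and photorespiration followed. Of 19 measured Calvin cycle and carbon supply genes 15 were lower (median -1.14), and all 14 measured genes of photorespiration, the pathway that recycles the product of the oxygenase side reaction of Rubisco, were lower at 0.5 h, at 0 h and within spike-in sets (medians -1.39, -1.48 and -1.42). CA1, a plastid carbonic anhydrase, read 11.73, 11.73, 11.10 and 11.50 without lincomycin and 7.51, 7.85, 7.56 and 7.61 with it. The CA1 difference of -3.88 ± 0.18 (adjusted p = 2.9e-11 in limma) was the same size at 0 h, with -3.88 in numbers 5 to 8. GS2, the plastid glutamine synthetase that recaptures photorespiratory ammonia, differed by -2.24 ± 0.10. RCA, which activates Rubisco, differed by -1.01 ± 0.10 at 0.5 h against -1.78 at 0 h in numbers 5 to 8 and -1.26 in numbers 1 to 4. The first gap passed and the second, between arrays of like spike-in division, did not (0.25 ± 0.14). TIM, the plastid triose phosphate isomerase, did not pass, at -0.34 ± 0.13, and its groups overlapped.

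**Figure D2:**
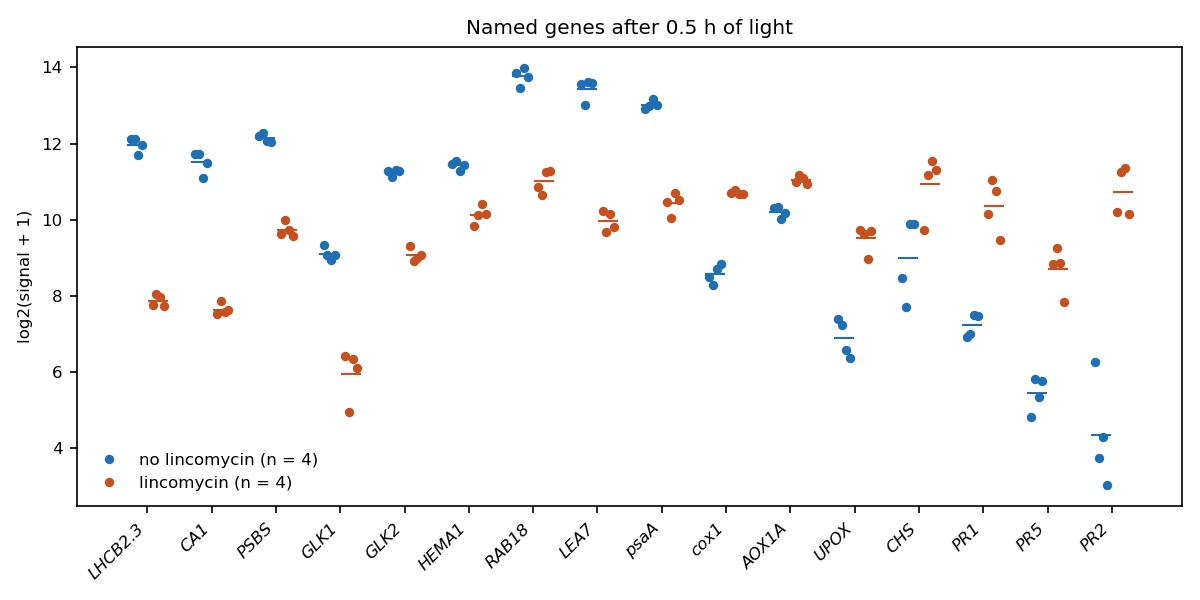
Level of 16 named genes on each array after 0.5 h of light, as log2(signal + 1), 4 arrays a group, with the group mean as a line. Photosynthesis genes and their regulators stand lower with lincomycin and the defence genes PR1, PR5 and PR2 higher, with PR2 at 3.01 to 6.26 without and 10.15 to 11.35 with lincomycin.

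Regulators of photosynthesis genes were lower in part. Of 8 measured, 5 were lower, and 4 of the 5 were lower at 0 h in numbers 5 to 8 too. The median of the 8 was -1.84, and GNC (-0.33) and GUN1 (-0.16) did not pass. GLK2, one of a pair of GOLDEN2-LIKE activators of chlorophyll and antenna genes, read 11.27, 11.13, 11.31 and 11.29 without and 9.31, 8.92, 9.0 and 9.06 with lincomycin, a difference of -2.17 ± 0.11 that was -2.48 ± 0.11 at 0 h. Its partner GLK1 was not called at 0 h in numbers 5 to 8 (-0.66). GLK1 read 9.33, 9.06, 8.94 and 9.07 without and 6.4, 4.93, 6.34 and 6.10 with lincomycin at 0.5 h. The GLK1 level on the lincomycin arrays was in the dim range, so it was at least 2.88 log2 units lower (measured -3.16 ± 0.32, adjusted p = 4.1e-07 in limma). The GLK1 effect at 0.5 h differed from that at 0 h in numbers 5 to 8 by -2.49 and that difference passed, while against numbers 1 to 4 (-2.03 at 0 h) the difference of -1.12 did not. BBX16, a B-box protein under phytochrome B, was at least 1.90 log2 units lower (measured -3.02 ± 0.40). CGA1, a GATA factor that promotes chloroplast growth, differed by -2.15 ± 0.24, and ABI4 did not pass at 0.84 ± 0.48, dim in both groups.

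Pigment synthesis was lower but less evenly. Among 31 genes of tetrapyrrole synthesis, the route to chlorophyll and haem, 21 were lower and 2 higher at 0.5 h (median -0.80). The reference arrays mattered here too. At 0 h 15 were lower in numbers 5 to 8 (median -0.36) and 22 in numbers 1 to 4 (median -0.85). Within spike-in sets 11 were lower (median -0.39). CAO, which makes chlorophyll b, differed by -1.92 ± 0.14, and GUN4, which activates magnesium chelatase, by -1.55 ± 0.13. HEMA1, the first enzyme committed to the pathway, read 11.29 to 11.55 without and 9.83 to 10.42 with lincomycin, with no overlap and a difference of -1.30 ± 0.12. GUN5, the large subunit of magnesium chelatase, differed by -1.13 ± 0.08 and by -1.58 ± 0.08 at 0 h. In numbers 1 to 4 GUN5 differed by -1.43, and the gap of 0.31 to 0.5 h did not pass. Of 19 carotenoid and isoprenoid genes 11 were lower (median -0.62), with the beta-carotene hydroxylase BCH2 at -3.14 ± 0.22 and PSY, the entry enzyme of carotenoid synthesis, at -1.52 ± 0.12.

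Nuclear genes for the plastid ribosome, the complex that lincomycin blocks, were lower for 26 of 29 at 0.5 h with a median of -0.65. That count depended on the arrays used as reference: 14 of 29 were lower at 0 h in numbers 5 to 8 (median -0.30), 28 in numbers 1 to 4, and 3 within spike-in sets (median -0.25). RPS13 differed by -1.23 ± 0.11 at 0.5 h and by -0.25 at 0 h in numbers 5 to 8, and RPL34 by -1.22 ± 0.07 and -0.83. Genes for plastid transcription held 8 lower and 3 higher of 21. PTAC16, a protein of the plastid nucleoid, differed by -2.85 ± 0.14 and SIG1, a sigma factor that directs plastid RNA polymerase, by -1.35 ± 0.11. By contrast RPOTP, a phage-type plastid polymerase, was higher by 1.35 ± 0.35. RPOTP passed neither at 0 h in numbers 5 to 8 (0.58) nor within spike-in sets (1.47). SIG5, a sigma factor known to respond to blue light, differed by -0.39 ± 0.14 at 0.5 h and by -2.17 at 0 h in numbers 5 to 8, but by -0.71 in numbers 1 to 4. For SIG5 the gap between the 0 h array sets passed (1.46), and that between 0.5 h and numbers 1 to 4 did not (0.32 ± 0.20). Of 25 import and quality control genes 12 were lower and 2 higher, including the thylakoid proteases FTSH8 at -1.76 ± 0.18 and FTSH1 at -1.75 ± 0.08.

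Transcripts of the chloroplast genome itself divided. Of 71 measured plastid genes 35 were lower and 13 higher at 0.5 h, with a median of -0.50. At 0 h 32 were lower and 16 higher in numbers 5 to 8, and 36 lower and 12 higher in numbers 1 to 4. Within spike-in sets 12 were lower and 13 higher, with a median of -0.44. The psaA transcript, for a core protein of photosystem I, read 12.90, 13.00, 13.17 and 13.02 without and 10.47, 10.03, 10.71 and 10.52 with lincomycin, a difference of -2.59 ± 0.17. Those untreated psaA values resembled the 0 h numbers 1 to 4 of the same low spike-in set (13.24 to 13.54) and not the 0 h numbers 5 to 8 (10.28 to 10.74). The difference of psaA was -0.79 at 0 h in numbers 5 to 8 and -0.44 within spike-in sets, which did not pass. For atpF, a subunit of the plastid ATP synthase, the direct value of -2.89 ± 0.21 turned into 0.17 within spike-in sets. By contrast psbH, a photosystem II subunit, was lower in all 3 comparisons (-2.84 ± 0.17, -1.31 and -1.28), and psbA, for the D1 protein, at 0.5 h and in numbers 5 to 8 (-3.03 ± 0.30 and -1.53) but not within spike-in sets (-1.57). The difference of the effect between 0.5 h and 0 h in numbers 5 to 8 was called for 27 plastid genes in the lower direction (5.29% of all probe sets were) and 6 in the higher. Between the 0 h array sets it differed for 28 and 7.

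Of 28 measured mitochondrial genome transcripts, 8 of them dim in both groups, 12 were higher at 0.5 h with a median of 0.73 and a range from -0.48 to 2.38, whereas in numbers 5 to 8 at 0 h 1 was higher and the median was -0.33, and in numbers 1 to 4, 8 were higher with a median of 0.67. The cox1 transcript, for a subunit of cytochrome oxidase, read 8.48, 8.29, 8.69 and 8.82 without and 10.71, 10.79, 10.68 and 10.66 with lincomycin, without overlap and with a difference of 2.14 ± 0.13. The cox1 difference was -0.24 at 0 h in numbers 5 to 8 and -0.09 within spike-in sets. The parts of spike-in set and treatment in these values cannot be told apart at 0.5 h.

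**Figure D3:**
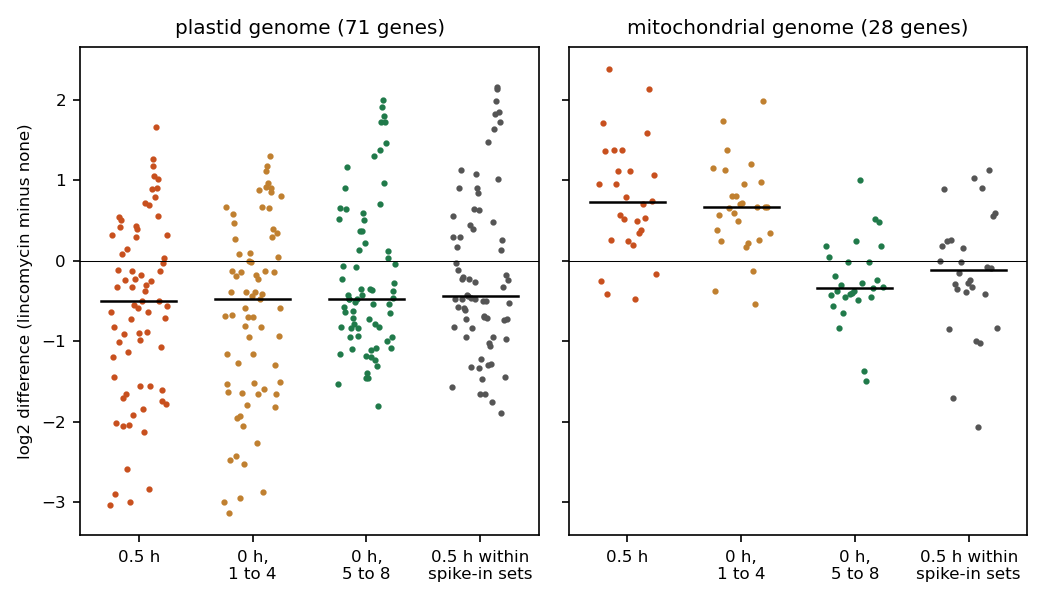
Lincomycin effect (log2 difference) of each of 71 plastid-encoded and 28 mitochondrially encoded genes at 0.5 h, at 0 h in numbers 1 to 4, at 0 h in numbers 5 to 8 and at 0.5 h within spike-in sets, with medians as lines. The mitochondrial median was 0.73 at 0.5 h and -0.33 in numbers 5 to 8, while the plastid median was -0.50 and -0.47.

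Defence genes were among the largest rises. Of 25 salicylate defence genes 18 were higher and 1 lower with lincomycin, with a median of 1.08; 7 of the 18 were also higher at 0 h in numbers 5 to 8, and 1 passed within spike-in sets. The list mean was 6.17 to 6.48 on the untreated arrays and 7.75 to 8.39 on the lincomycin arrays. PR2, a secreted glucanase that marks the salicylate response, read 6.26, 3.74, 4.27 and 3.01 without and 10.19, 11.26, 11.35 and 10.15 with lincomycin. Since the untreated signal was dim, PR2 was at least 4.97 log2 units higher (measured 6.42 ± 0.71, adjusted p = 1.3e-06 in limma), and it also passed at 0 h in numbers 5 to 8, where it was at least 1.67 log2 units higher. AED1, an aspartyl protease of systemic resistance, was at least 3.26 log2 units higher, read 2.77 to 3.90 against 7.92 to 9.71, and passed at 0 h in numbers 5 to 8 with 1.75. PR1, the classical salicylate marker, read 6.92, 7.00, 7.5 and 7.47 without and 10.14, 11.04, 10.74 and 9.46 with lincomycin. The PR1 difference was 3.13 ± 0.48 at 0.5 h but 1.16 at 0 h in numbers 5 to 8, which did not pass, against 2.81 in numbers 1 to 4, which did. PR5 was at least 2.93 log2 units higher and passed at 0 h in numbers 5 to 8. PBS3, an enzyme that acts in making salicylate, was at least 1.54 higher. At 0 h PBS3 differed by -0.36 in numbers 5 to 8, which did not pass, and by 2.67 in numbers 1 to 4, which did. The PBS3 effect at 0.5 h did not differ from the latter by the test (0.83).

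More receptors and secreted proteins stood among the largest rises. WAK1, a kinase attached to the cell wall, was at least 2.80 log2 units higher, with 3.12 to 5.77 against 7.62 to 9.52 on the arrays and 3.81 at 0 h in numbers 5 to 8. PNP-A, a secreted peptide, was at least 3.20 higher and SAG13, a short-chain reductase induced in senescence, at least 3.19, although SAG13 did not pass in numbers 5 to 8 (1.45). TPS04, the terpene synthase that makes geranyllinalool, was at least 2.14 higher at 0.5 h and differed by -1.09 at 0 h in numbers 5 to 8 and by 0.93 in numbers 1 to 4; the 0.5 h effect differed from the former by the test and not from the latter. RLP40, a receptor-like protein, was at least 2.55 higher at 0.5 h, with 0.63 at 0 h in numbers 5 to 8 and 1.90 in numbers 1 to 4, and the same held for it. Among 11 jasmonate genes 5 were higher (median 0.67), with LOX3, a lipoxygenase, at least 1.26 higher and THI2.1, a thionin, at 2.38 ± 0.39. THI2.1 read 5.28 to 7.01 without and 8.37 to 9.0 with lincomycin. Of 16 glucosinolate genes 12 were higher (median 0.80), 11 of them also at 0 h in numbers 5 to 8, led by BCAT4, which starts methionine chain elongation, at 1.52 ± 0.29 and its regulator MYB29 at 1.43 ± 0.19.

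Genes of abscisic acid, cold and drying were lower at 0.5 h, and fewer of them were in the 0 h numbers 5 to 8. Of 20 measured, 14 were lower and 1 higher (median -0.88), whereas in numbers 5 to 8 at 0 h 3 were lower and 4 higher (median -0.07). In numbers 1 to 4 12 were lower. For 10 the effect at 0.5 h was lower than in numbers 5 to 8 by the test of that difference, and for 9 the effect at 0 h in numbers 1 to 4 was. RAB18, a dehydrin, read 13.85, 13.46, 13.99 and 13.76 without and 10.86, 10.65, 11.24 and 11.27 with lincomycin, and at -2.76 ± 0.18 it held at 0 h (-2.65) and within spike-in sets (-2.76). LEA18, a late embryogenesis abundant protein, was at least 2.64 log2 units lower, and LEA4-5 differed by -3.63 ± 0.43 but by -0.27 at 0 h. LEA7, of the same kind of protein, read 13.01 to 13.62 without and 9.68 to 10.23 with lincomycin and differed by -3.48 ± 0.26 at 0.5 h and -2.72 at 0 h. COR15A, a plastid protein made in the cold, was called in opposite directions. COR15A read 13.17, 12.76, 12.33 and 12.03 without and 10.95, 10.48, 9.80 and 10.19 with lincomycin at 0.5 h, but 10.08, 8.82, 9.46 and 8.83 without and 11.61, 11.70, 11.71 and 11.42 with it in numbers 5 to 8. Its difference was -2.22 ± 0.30 at 0.5 h, 2.31 ± 0.30 at 0 h in numbers 5 to 8 and -1.73 ± 0.30 in numbers 1 to 4, and within spike-in sets it was 1.83. The sign of the COR15A difference thus depended on the arrays compared.

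Metabolic and respiratory genes came next. Of 20 starvation and sugar genes 13 were lower and 3 higher (median -0.65), 11 of the falls shared with 0 h, among them LKR, which degrades lysine, at -1.59 ± 0.13. MES16, an esterase that acts on chlorophyll breakdown products, differed by -3.31 ± 0.33 and by -3.29 at 0 h. FADA, named in RefSeq as a fatty acid desaturase, was at least 2.92 log2 units lower and passed in all 3 comparisons. GPT2, a plastid glucose phosphate carrier induced by sugar, was higher by 1.86 ± 0.50 and not called at 0 h. Among 21 genes of alternative respiration and mitochondrial stress 8 were higher and 3 lower, with a median of 0.84 at 0.5 h and -0.03 in numbers 5 to 8. In numbers 1 to 4 at 0 h, 12 were higher and 2 lower, with a median of 0.74. UPOX, a mitochondrial stress protein, read 7.38, 7.23, 6.58 and 6.37 without and 9.73, 9.63, 8.96 and 9.71 with lincomycin; it differed by 2.62 ± 0.24, by 2.31 at 0 h and by 1.73 within spike-in sets, all called. AOX1A, the main alternative oxidase, differed by 0.84 ± 0.11, and NDA1, a NADH dehydrogenase that bypasses complex I and is known to follow light, by -2.05 ± 0.26.

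Light and stress responders were more mixed. Of 26 flavonoid genes 10 were higher and 3 lower (median 0.37). CHS, chalcone synthase, read 8.46, 7.70, 9.88 and 9.87 without and 9.73, 11.17, 11.55 and 11.30 with lincomycin, so that the groups overlapped. The CHS difference was 1.96 ± 0.59 at 0.5 h (adjusted p = 0.017 in limma). At 0 h it was 3.25 in numbers 5 to 8, which passed, and 0.37 in numbers 1 to 4, which did not. The gap between these 0 h sets passed (-2.88). Of 27 light signalling genes 13 were lower and 2 higher. HY5, the factor that promotes seedling greening, differed by -0.71 ± 0.18 at 0.5 h and by 0.34 within spike-in sets. At 0 h HY5 differed by -0.05 in numbers 5 to 8 and by -1.11 in numbers 1 to 4. For HY5 the gap between the 0 h array sets passed (-1.05), and that between 0.5 h and numbers 1 to 4 did not (0.39). ELIP1 and ELIP2, antenna-like proteins made in bright light, did not pass (0.76 ± 0.56 and -0.25 ± 0.32). Among 21 photoprotection and antioxidant genes 14 were lower and 3 higher (median -0.59), and VTE1, tocopherol cyclase, differed by -2.13 ± 0.34. VTE1 passed neither at 0 h in numbers 5 to 8 (-0.63) nor within spike-in sets (-1.26). In numbers 1 to 4 at 0 h VTE1 differed by -1.5, which passed. The 16 rapid stress factors held 4 higher and 3 lower (median 0.22, that of all probe sets), with WRKY40 at 1.13 ± 0.22 and DREB2A at -1.19 ± 0.18. WRKY40 passed neither at 0 h in numbers 5 to 8 (0.09) nor within spike-in sets (0.3), but did in numbers 1 to 4 (0.91). DREB2A passed in all of these. Of 20 clock genes 9 were lower (median -0.31), and CCA1, a morning clock factor, differed by -0.86 ± 0.12 at 0.5 h, by -0.80 at 0 h in numbers 1 to 4 and by -1.89 in numbers 5 to 8, the last being apart from both others in the test. Heat shock genes held 2 higher and 2 lower of 19, and HSP21, a plastid chaperone, did not pass and was dim. For shade and auxin growth, 5 of 17 were higher and 1 lower with a median of 0.06 that turned to -0.18 after quantile normalization. At 0 h 0 were higher and 5 lower in numbers 5 to 8, and 4 were higher and 2 lower in numbers 1 to 4. Within spike-in sets 0 were higher and 3 lower. GH3.3, which conjugates auxin, differed by 1.51 ± 0.28 at 0.5 h but was called higher neither in numbers 5 to 8 nor within spike-in sets.

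**Figure D4:**
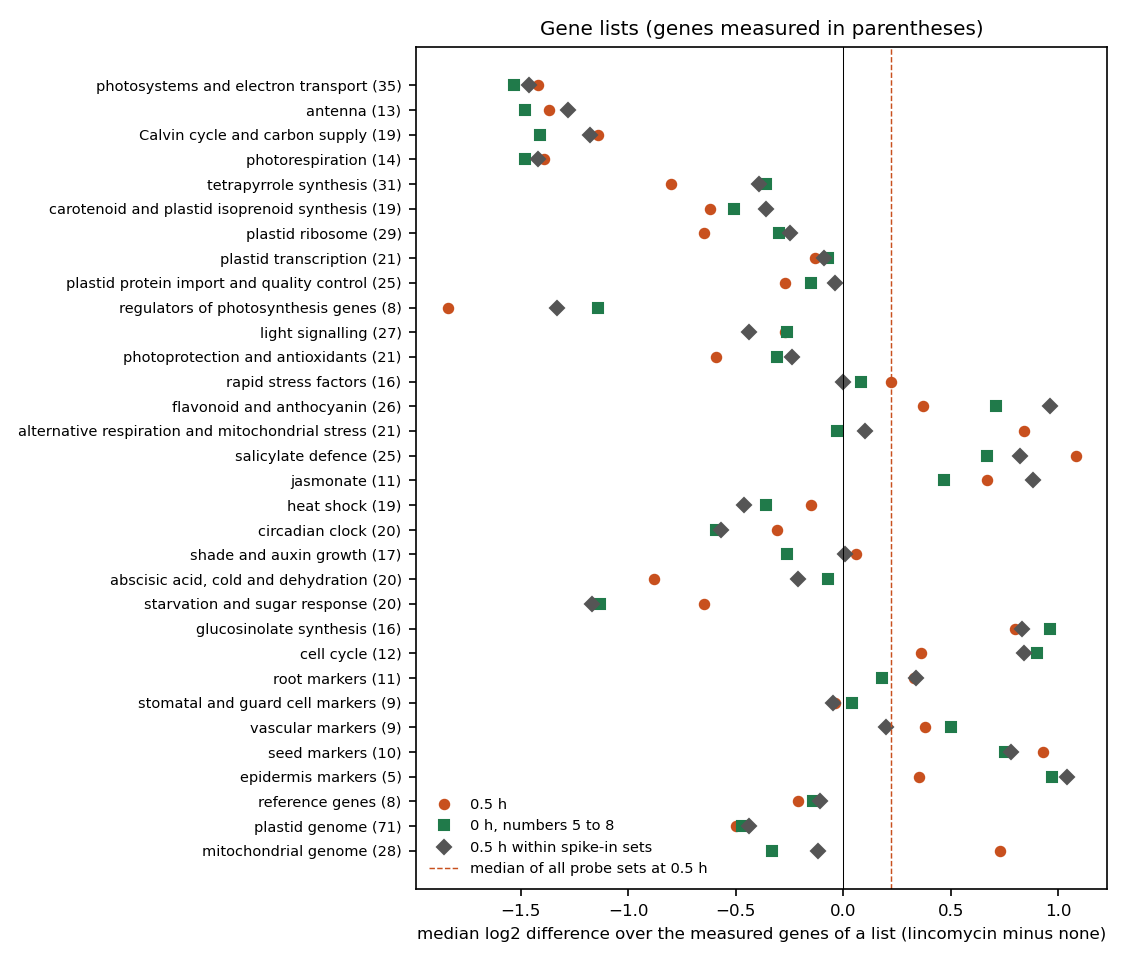
Median log2 difference (lincomycin minus none) over the measured genes of 32 lists at 0.5 h, at 0 h in numbers 5 to 8 and at 0.5 h within spike-in sets; the dashed line is the median of all probe sets at 0.5 h, 0.22. The photosynthesis lists lie left of zero on all 3 measures. The mitochondrial genome, alternative respiration and abscisic acid lists differ between 0.5 h (0.73, 0.84 and -0.88) and 0 h in numbers 5 to 8. In numbers 1 to 4 at 0 h, which are not drawn, their medians were 0.67, 0.74 and -0.77.

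Few genes passed the test of whether the lincomycin effect changed within the first 0.5 h of light. The effect at 0.5 h differed from that at 0 h in numbers 1 to 4, arrays divided over the spike-in sets in the same way, for 22 probe sets (0.0967%) in limma, 14 (0.0615%) in the positive and 8 (0.0352%) in the negative direction, while 1537 had an unadjusted p under 0.05. Leaving out 1 array gave 13 calls without Lin_0.5h 4, 13 and 14 without noLin_0.5h 1 and 2, 14 without Lin_0h 1, and 12 and 11 without noLin_0h 2 and 3. With only the 16 arrays of this contrast in the fit, 2 were called, ARR15 and GATA4. Between 0 h in numbers 1 to 4 and 0.5 h, 252 probe sets (1.11%) were called without lincomycin, 106 higher (0.466%) and 146 lower (0.642%) after light, and 94 (0.413%) with it, 46 higher (0.202%) and 48 lower (0.211%). The difference between these counts was not tested.

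Of the 8 genes with a negative difference 6 belong to the primary response to cytokinin. Cytokinin is a plant hormone that promotes cell division and chloroplast development; its receptors pass phosphate to response regulators, of which the B-type are transcription factors and the A-type are their quickly induced targets and damp the signal, while cytokinin response factors are induced beside them. The genes were ARR15, ARR7, ARR6 and ARR5, which are A-type regulators, and the response factors CRF2 and CRF5. That they form a group was seen in these values, ARR5 and, below, KMD4 and GATA2 fell outside the rule for naming and were chosen after their values were seen, and the families below were listed afterwards and are given as a description.

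ARR15 read 9.59, 9.67, 9.63 and 9.78 without lincomycin at 0.5 h and 6.72, 5.39, 6.55 and 6.47 with it. Before the light, ARR15 was at 6.43, 7.02, 7.27 and 6.31 without and 6.48, 6.19, 6.54 and 6.35 with lincomycin on the arrays numbered 1 to 4. The untreated seedlings after 0.5 h of light thus stood alone above the other 20 arrays of the fit. ARR15 rose by 2.91 ± 0.27 log2 units in light without lincomycin (adjusted p = 1.6e-06 in limma) and changed by -0.11 ± 0.27 with it, and the difference of the 2 was -3.02 ± 0.38 (adjusted p = 0.0013). ARR15 was called under all 24 alternatives run, from -3.19 to -2.72. The direct lincomycin effect on ARR15 was -3.39 ± 0.27 at 0.5 h, -0.12 at 0 h in numbers 5 to 8 and -3.14 within spike-in sets.

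ARR7 repeated the pattern at a smaller size. It read 12.48, 12.35, 12.53 and 12.44 without and 10.51, 10.03, 11.09 and 10.97 with lincomycin at 0.5 h, and 10.22 to 10.80 on the 8 arrays numbered 1 to 4 at 0 h. ARR7 rose by 1.75 ± 0.17 in light without and changed by 0.20 ± 0.17 with lincomycin, a difference of -1.54 ± 0.24 (adjusted p = 0.0095 in limma). ARR6 rose from 9.25 to 9.73 on the untreated arrays at 0 h to 10.90 to 11.23 at 0.5 h, whereas with lincomycin it was at 9.50 to 9.97 and then 9.43 to 10.04. The difference for ARR6 was -1.38 ± 0.23 and for ARR5 -1.19 ± 0.17 (adjusted p = 0.018 and 0.0065). ARR5 read 11.26, 11.37, 11.62 and 11.55 without and 10.10, 9.70, 10.40 and 10.27 with lincomycin at 0.5 h, with no overlap.

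The response factors moved likewise. CRF5 read 9.37, 9.33, 9.30 and 9.36 without and 8.24, 7.55, 7.70 and 7.38 with lincomycin at 0.5 h, against 7.35 to 8.10 on the 0 h arrays numbered 1 to 4. CRF2 read 9.21 to 9.32 without and 7.18 to 7.93 with lincomycin, against 7.07 to 7.97 at 0 h. In both, the untreated arrays at 0.5 h lay above every other array of these groups. The differences were -1.66 ± 0.27 for CRF5 and -1.29 ± 0.23 for CRF2 (adjusted p = 0.011 and 0.025 in limma). Of the 24 alternatives, 22 called CRF5, 22 ARR7, 21 ARR6, 23 ARR5 and 12 CRF2, and in all of them the direction was the same.

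**Figure D5:**
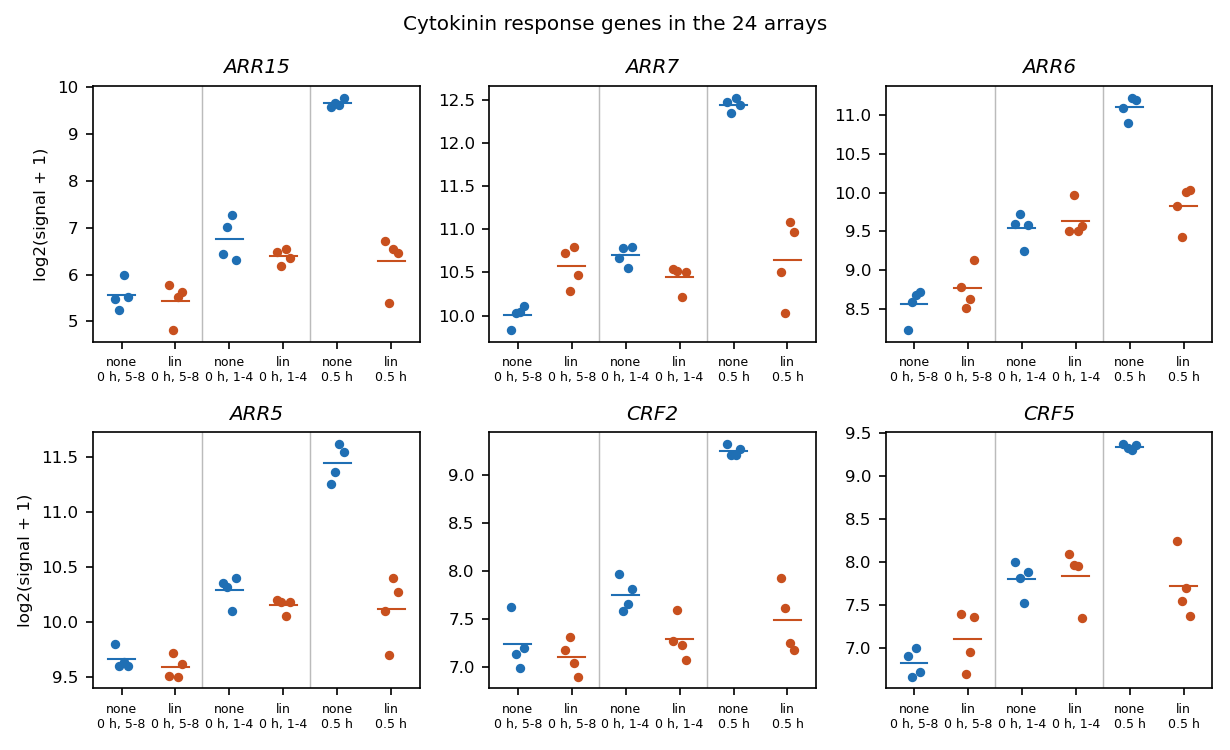
Level of ARR15, ARR7, ARR6, ARR5, CRF2 and CRF5 on each of the 24 arrays, as log2(signal + 1), with group means as lines; "none" and "lin" are seedlings without and with lincomycin, and 1-4 and 5-8 are the array numbers at 0 h. In each panel the 4 untreated arrays at 0.5 h stand highest, for ARR15 at 9.59 to 9.78.

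The remaining members of the cytokinin families were mixed. All 10 A-type regulators had a probe set. At 0.5 h 8 were lower with lincomycin and 1 higher (10.5% and 18.6% of all probe sets were). At 0 h 1 was lower and 2 higher in numbers 5 to 8, and 3 were lower and 1 higher in numbers 1 to 4. Within spike-in sets the 4 lower were ARR15, ARR7, ARR6 and ARR5, already named above. In light 5 rose without lincomycin (0.466% of all probe sets did) and 0 with it in limma. With lincomycin 1953 probe sets had an unadjusted p under 0.05. The fifth to rise was ARR16, by 1.00 ± 0.12 without and 0.48 ± 0.12 with lincomycin, and its difference of -0.52 ± 0.17 did not pass. ARR8 and ARR9 changed by 0.04 ± 0.12 and 0.00 ± 0.10 in light without lincomycin, and ARR4 by 0.24 ± 0.16. Of 5 measured response factors CRF6 had a difference of 0.03 ± 0.21. Among 7 B-type regulators and 3 receptors no light response passed in either treatment in limma (1883 probe sets had an unadjusted p under 0.05 without and 1953 with lincomycin), and the medians of their light responses lay between -0.07 and 0.11. Of 6 measured cytokinin oxidases, which break the hormone down, CKX5 fell by 0.80 on the log2 scale in light without lincomycin, and it changed by -0.42 ± 0.16 with it, which did not pass.

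Members of a protein family known to remove B-type regulators had the opposite sign. KMD3 and KMD4 are KISS ME DEADLY F-box proteins, which are known to target B-type regulators and other proteins for degradation. KMD3 read 9.40 to 10.42 without and 11.84, 11.54, 11.67 and 11.80 with lincomycin at 0.5 h. KMD3 fell by 1.65 on the log2 scale in light without lincomycin and changed by -0.29 ± 0.18 with it, a difference of 1.36 ± 0.26 (adjusted p = 0.044 in limma) that 7 of 24 alternatives called. KMD4 fell by 1.01 without lincomycin, with a difference of 0.83 ± 0.16 that 6 called. KMD1 and KMD2 fell in both treatments, and their differences of 0.44 ± 0.15 and -0.07 ± 0.17 did not pass.

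Of the 14 genes with a positive difference 12 were called lower after light without lincomycin; AT1G07270 (-1.61 ± 0.43) and TRM14 (-0.03 ± 0.10) were not. GATA4, a GATA-type transcription factor, read 10.87, 11.15, 10.90 and 10.85 at 0 h (numbers 1 to 4) and 9.44, 9.47, 9.72 and 9.85 at 0.5 h without lincomycin, and 10.19 to 10.49 and then 10.30 to 10.58 with it. The GATA4 difference was 1.45 ± 0.16 (adjusted p = 0.00056 in limma), and all 24 alternatives called it. Its relative GATA2, known from Arabidopsis as a promoter of light-dependent development, differed by 1.04 ± 0.20, which 6 alternatives called. LBD37, a repressor of nitrate-responsive genes, fell from between 10.59 and 10.95 to between 9.32 and 9.69 without lincomycin and stayed within 10.10 to 11.05 with it, a difference of 1.5 ± 0.24 (adjusted p = 0.011). SAUR6, an auxin-responsive gene, differed by 1.33 ± 0.20 and SAUR51, of the same family, by -2.40 ± 0.41. The remaining genes had differences of 0.78 to 3.35 and, for AT1G75420, of -0.88. The 2 above 3, AT5G44360 and AT1G07270, were dim, with untreated means of 2.97 and 4.03 at 0.5 h.

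At 1 h the lincomycin effect on ARR15, ARR7 and CRF2 was called in limma. At 4 and 24 h it was smaller in size, and its sign was positive for ARR7 and, at 24 h, for ARR15. That change over time was not tested, and later values of ARR6, ARR5 and CRF5 in this fit are not given. The lincomycin effect on ARR15 was -2.82 ± 0.28 at 1 h, -0.64 ± 0.26 at 4 h and 0.26 ± 0.28 at 24 h, on arrays that the 0.5 h comparison did not use. ARR7 gave -0.95 ± 0.17, 0.12 ± 0.16 and 0.48 ± 0.17, and CRF2 -2.37 ± 0.16, -0.64 ± 0.15 and -0.34 ± 0.16. The 1 h arrays were divided over the spike-in sets as the 0.5 h arrays were, and the 4 h arrays were not. The authors' deposited table was made from the same arrays by other processing. In it the logged light response of ARR15 at 0.5 h was 4.44 without and -0.01 with lincomycin. That of ARR7 was 2.13 and 0.23, and that of KMD3 was -2.52 and -0.48. Other genes with a called difference had almost no light response there in either treatment. These were AT5G44360 (0.01 and 0.01), AT1G07270 (0.0 and 0.01), AT1G75420 (0.0 and -0.12) and TRM14 (-0.0 and -0.02). The lincomycin effect at 24 h in that table was 0.96 for ARR5, 0.86 for ARR6, 0.85 for CRF5 and 0.55 for ARR7. It was -0.35 for ARR15 and -0.54 for CRF2. That table gives no base for its logarithms.

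Counts of markers of other cell types are read against the shares of all probe sets. At 0.5 h 18.6% were called higher and 10.5% lower. At 0 h the higher share was 17.1% in numbers 5 to 8 and 20.1% in numbers 1 to 4. Of 11 root markers 1 was higher (PYK10, by 0.33 ± 0.10), of 9 stomatal markers 1 was higher and 1 lower, and of 9 vascular markers 3 were higher (medians 0.33, -0.04 and 0.38). The list means were 8.17 to 8.63 without and 8.33 to 8.84 with lincomycin for root and 6.87 to 7.15 and 6.95 to 7.22 for stomatal markers. Of 5 epidermis markers 2 were higher at 0.5 h, 5 at 0 h in numbers 5 to 8 and 2 in numbers 1 to 4. CER1, which makes cuticular wax, differed by 1.09 ± 0.15 at 0.5 h. Seed markers were dim in both groups for 9 of 10. Of 12 cell cycle genes 4 were higher at 0.5 h (median 0.36), including the mitotic cyclin CYCB1;1 at 1.61 ± 0.34. At 0 h 10 were higher in numbers 5 to 8 and 6 in numbers 1 to 4. The part of a changed make-up of the seedlings in the results above was not tested. Of 8 reference genes 3 were lower, by at most 0.36 log2 units (ACT2, -0.36 ± 0.08).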

How the data were processed

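Per the labels, biotin-labelled RNA was hybridised to ATH1 arrays. The deposited values are intensities on a linear scale; MAS5 and GCRMA appear, with no stated role, in the submitters' processing notes, and each array's mean after trimming 2% at both ends was 500.03 to 500.05. The authors' deposited comparison table holds log ratios, read as log2 because over 6049 brighter probe sets its 0 h ratio followed the arrays numbered 5 to 8 (r = 0.98 across genes, slope 1.2). From the intensities, log2(signal + 1) was taken, 64 control probe sets were left out, and limma 3.58.1 (lmFit and eBayes, R 4.3.3) was fitted to 24 arrays in 6 groups of 4, with Benjamini-Hochberg adjustment over 22746 probe sets. Brightness and array number limit the precision. A group mean no brighter than the first quartile of signals, averaged over its arrays, was called dim; its difference is a bound ("at least") from the bright group's mean to the dim group's mean of, per array, the higher of that array's first quartile and the gene's own value. Later times were fitted on 46 arrays. No detection calls were used. A probe set was named where it had 1 gene (21463 sets) through the authors' locus column or the platform table, with symbols from RefSeq; a gene with several sets is shown by the brightest.

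Named genes were: the 8 largest rises and falls shared with 0 h numbers 5 to 8, the 6 not called there, the 4 largest opposite ones, the 6 largest differences of the effect in each direction, up to 5 called members and 1 not called of 32 lists, and 21 fixed genes. Members and lists were chosen with earlier results of these data known; the cytokinin families were added after the values were seen. Same-numbered arrays at 0.5 h did not deviate together (correlations -0.05 to 0.06). Alternatives changed the arrays fitted, the scaling, the pseudocount, a filter on dim sets, the variance prior and the replicate block. The tests of the 0.5 h effect against numbers 5 to 8 and of light within a treatment were added after the data were seen.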

Additional observations from a re-analysis of the deposited data

Results flagged for a closer look

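The lincomycin effect at 0.5 h differed from that at 0 h in numbers 1 to 4, by limma's test of the difference, for 22 named genes. Negative differences were found for ARR15 (-3.02), SAUR51 (-2.40), CRF5 (-1.66), ARR7 (-1.54), ARR6 (-1.38), CRF2 (-1.29), ARR5 (-1.19) and AT1G75420 (-0.88). Positive ones were found for AT5G44360 (3.35), AT1G07270 (3.14), AT3G07350 (1.53), LBD37 (1.5), GATA4 (1.45), KMD3 (1.36), SAUR6 (1.33), AT5G60680 (1.17), GATA2 (1.04), AT5G25280 (0.99), bHLH121 (0.87), AT5G03230 (0.85), KMD4 (0.83) and TRM14 (0.78).

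One array lay apart from the other 3 of its group, by Dixon's ratio, in 27 of 458 groups over 229 genes; chance gives about 1 in 20. On the lincomycin arrays the lone value, in log2 signal, was the highest for LHCB4.2 (12.04), SHM1 (10.31), PSY (9.60), LUT5 (8.19), CYCB1;1 (8.19), ARR8 (9.03) and ARR17 (5.79). It was the lowest for CGA1 (7.60), UF3GT (6.93), DFR (6.05), UPOX (8.96), RVE4 (11.50), PRR5 (8.99), SIG5 (9.58) and ELIP1 (4.81). On the untreated arrays it was the highest for PSBTN (12.66), DEG1 (10.41) and ARR17 (4.25). It was the lowest for LEA7 (13.01), AT3G17520 (9.33), PRK (12.61), RRTF1 (4.08), OM66 (6.64), PAD4 (3.97), LKR (11.97), FMO-GS-OX1 (3.06) and OLEO2 (5.51).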

How the results depend on the processing

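The 6610 calls at 0.5 h became 2542 within spike-in sets and the share of higher calls 52.6% after quantile normalization (63.9% before). Leaving out 1 array gave 5487 to 6254 calls at 0.5 h, 5681 to 6223 at 0 h in numbers 5 to 8, 2737 to 3113 shared ones and a share of 61.3 to 63.9%. The 22 calls in the difference of the effect against numbers 1 to 4 became 42 with 46 arrays fitted, 37 with a variance trend, 2 with the 16 arrays of that contrast and 11 to 23 without 1 array. Leaving out 0 h arrays of numbers 1 to 4 was chosen after seeing the data. With the replicate block that difference had 9 calls, and there were 6215 at 0.5 h, 6224 at 0 h, 2948 shared and a share of 63.5%; the numbers are shared without a stated pairing. Within spike-in sets 11 named genes took the other sign: atpF (0.17), COR15A (1.83), AT4G38080 (-0.72), AT5G15950 (0.06), SPA1 (0.09), ZAT10 (-0.21), IAA3 (0.09), IAA1 (-0.35), cox1 (-0.09), HY5 (0.34) and ARR8 (0.28). Another 80 of 229 no longer passed there, against 20 after quantile normalization and 7 to 17 without 1 array at 0.5 h. The cause was not tested. The authors' table was not run as an alternative, since it holds no direct 0.5 h comparison. Dim signals limit the larger rises.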
